A study of Mus musculus with 12 samples.

Results

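Sox9, Sox5, Sox6, Sox4, Sox11, Trps1, Nfatc1, Hdac4, Shox2 and Barx2 encode transcription factors, and in the case of Hdac4 a co-repressor, that act in cartilage. They were followed in growth plate hypertrophic zones of 2 mouse models of misfolded protein. All non-control probes of an Agilent single-colour array that carry 1 of these 10 gene names were taken, which gave 28 of 41174 probes and 10 of 27962 gene names. Each of 12 arrays was hybridised with amplified RNA from the hypertrophic zone, cut by scalpel from sections of the tibia of a single 14 day old mouse. Schmid mice were homozygous for Col10a1 p.Asn617Lys, a collagen X that misfolds. Cog mice carried the ColXTgcog transgene, in which the Col10a1 promoter drives a misfolding thyroglobulin in hypertrophic chondrocytes, and mice with the transgene on 1 or on both chromosomes were not told apart. Wildtype littermates of the Schmid background and of the Cog background formed the control groups, with 3 arrays in each of the 4 groups.

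In the growth plate, chondrocytes rest, divide in columns, enlarge and are finally replaced by bone. SOX9 commits cells to cartilage and switches on its matrix genes, and SOX5 and SOX6, which lack an activation domain, bind beside it as partners of the SOX trio. SOX4 and SOX11 belong to the SoxC group of activators of progenitor cells. TRPS1 is a GATA-type repressor, NFATc1 is activated by calcineurin and directs osteoclast formation, HDAC4 holds back hypertrophy by binding MEF2 and RUNX2, and SHOX2 and BARX2 are homeodomain factors of the developing limb and joint. All SOX proteins bind DNA through an HMG box.

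The probes of Sox9 and Sox11 that lie in the HMG box coding sequence are shown because the domain is what the family shares, and the Sox4 probe because it carried the most negative fold change among the Sox members. They were 60 bases long and are written 5′ to 3′. Capitals in the Sox9 and Sox11 probes mark the longest run of bases found in both, 10 bases. Aligned without gaps, the pair matched at 29 of 39 bases. The files place them, in build mm7, at chr11:112892041-112892893, chr12:25177775-25177834 and chr13:28317744-28317803, and the span given for Sox9 is longer than the probe.
Sox9 HMG box probe: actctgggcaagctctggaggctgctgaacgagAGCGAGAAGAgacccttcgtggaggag
Sox11 HMG box probe: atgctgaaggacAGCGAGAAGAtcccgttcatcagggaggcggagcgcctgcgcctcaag
Sox4 probe: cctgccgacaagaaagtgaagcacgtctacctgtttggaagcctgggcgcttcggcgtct

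Values were log2 normalized intensities, which order arrays at a given probe and not probes of different genes. A probe was called changed where limma gave an FDR-adjusted p (false discovery rate of Benjamini and Hochberg over all 41174 probes) no higher than 0.05 together with a 2-fold or larger difference. A fold change of -1.5 stands for a 1.5-fold lower value. A probe was taken as measured on an array where the scanner software marked it well above background. At the brightest probe of each gene (highest mean over the arrays), 5 of the 10 genes were well above background on all 12 arrays, 4 on some arrays and Shox2 on none. Of all 28 probes, 8 were well above background on every array, 14 on some and 6 on none, and none was saturated.

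None of the 10 genes was called at its brightest probe in Schmid, in Cog or between the wildtype groups. In Schmid, 5.78% of all probes were called higher and 4.69% lower. In Cog, 1.56% were called higher and 0.748% lower, and between the wildtype groups 0.469% were called. Among the brightest probes of all 27962 gene names, 5.8% were called higher and 5.75% lower in Schmid, and 1.89% and 0.837% in Cog. The counts of the gene lists below, also at brightest probes, stand beside these shares. Without the limit on the fold change, 2 of the 10 genes, Sox4 and Hdac4, had an adjusted p of 0.05 or less in Schmid, where 24.0% of all probes did, and none did in Cog, where 4.58% did. At an unadjusted p of 0.05 or less, 4 of the 10 passed in Schmid and 2 in Cog, beside 16167 and 8751 of all 41174 probes. The Schmid arrays lay all above the wildtype arrays for 2 genes (19.3% of probes) and all below for 3 (26.1% of probes). The Cog arrays lay all above for 1 gene (16.4% of probes) and all below for 1 (13.0% of probes). The median log2 fold change over the 10 genes was 0.16 in Schmid and -0.09 in Cog, beside medians over all probes of -0.06 and 0.00. The medians over the genes include Shox2. In Cog they also include Sox5 and Hdac4, which were not well above background on any Cog array.

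**Figure D1:**
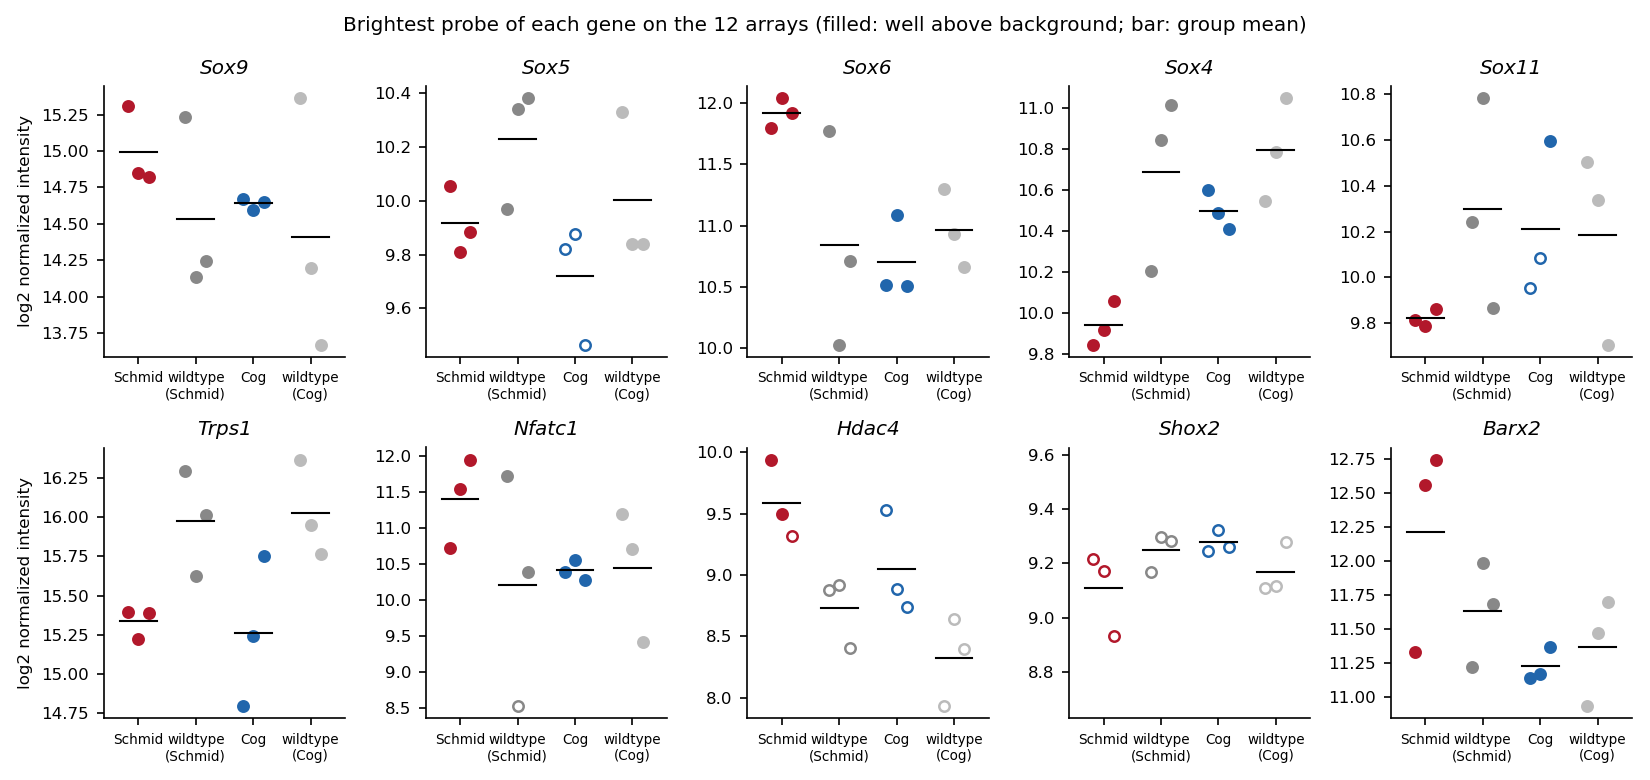
Log2 normalized intensity at the brightest probe of each of the 10 genes on the 12 arrays, by group, with wildtype groups named by their background. Filled points were well above background, open points were not, and bars are group means of 3 arrays. Sox4, Sox11 and Trps1 lay lower on every Schmid array than on every wildtype array of that background, Sox6 and Hdac4 lay higher, and all 12 Shox2 points are open.

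**Figure D2:**
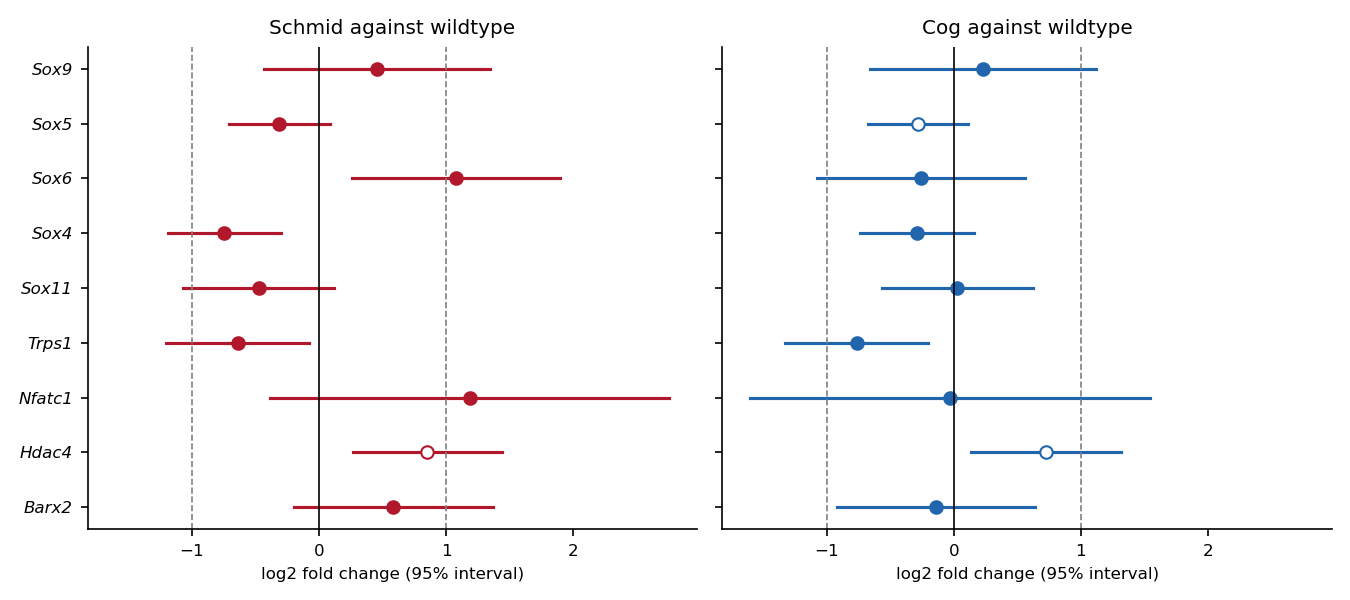
Log2 fold change with its 95% interval for 9 genes at the brightest probe, Schmid against wildtype on the left and Cog against wildtype on the right (n = 3 per group). Open points mark comparisons with a group not well above background on any array, dashed lines mark 2-fold either way, and Shox2 is left out because it was not measured in any group. In Schmid, the intervals of Sox6 and Hdac4 lie above 0 and those of Sox4 and Trps1 below.

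The arrays lay on 4 slides, none of which carried a mutant group beside its wildtype, and slide effects cannot be told apart from genotype. Between 39.6% and 61.8% of spots were well above background, and the Schmid arrays had the lowest background, with a median negative control intensity of 202 to 618 beside 977 to 1894 elsewhere. All 8 chondrocyte markers were well above background on every array, as were all 9 hypertrophic chondrocyte markers, which include Col10a1. In Schmid 3 of the 9 hypertrophic markers and 1 of the 8 chondrocyte markers were called lower. Their log2 summed levels were 18.92 to 19.30 and 20.61 to 20.74 in Schmid, beside 19.58 to 20.36 and 20.98 to 21.31 in wildtype. The summed level of 7 red cell markers, 3 of them called lower, was 14.67 to 16.10 in Schmid and 17.95 to 19.95 in wildtype. The part of these shifts in the values below was not tested. These are pieces of tissue, so fewer cells of a type and less RNA per cell cannot be told apart.

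Sox9, the factor on which chondrocyte identity depends, did not differ between either mutant and wildtype beyond the spread between arrays. At its brightest probe, which is spotted 10 times on each array, the log2 values were 15.31, 14.85 and 14.82 in Schmid and 15.23, 14.13 and 14.24 in wildtype. In Cog they were 14.67, 14.60 and 14.65, and in wildtype 15.36, 14.20 and 13.67. The groups overlapped in both comparisons, as wildtype replicate 1 of the Schmid background lay within the Schmid range and the Cog arrays lay within the range of their wildtype. Spots of this probe within an array had an SD between 0.13 and 0.18, whereas the wildtype arrays had an SD of 0.61 in the Schmid background and 0.87 in the Cog background (n = 3 each).

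The log2 fold change of Sox9 was 0.46 in Schmid (95% interval -0.43 to 1.35; limma, FDR-adjusted p = 0.422) and 0.23 in Cog (95% interval -0.66 to 1.12; FDR-adjusted p = 0.787). These intervals do not exclude a 2-fold rise in either mutant. The second Sox9 probe read 13.27, 13.69 and 13.74 in Schmid and 14.38, 13.84 and 13.60 in wildtype, and the HMG box probe 9.35, 9.73 and 9.65 in Schmid and 9.69, 10.22 and 10.06 in wildtype. Both were lower in Schmid, with log2 fold changes of -0.38 (FDR-adjusted p = 0.411) and, at the HMG box probe printed above, -0.42 (FDR-adjusted p = 0.0687). Averaged over its 3 probes, the Sox9 log2 fold change was -0.11 in Schmid (FDR-adjusted p = 0.617) and -0.02 in Cog (FDR-adjusted p = 0.957), so that its direction depended on the probe.

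Sox5 was well above background on 9 of 12 arrays at its brightest probe. The values there were 10.06, 9.81 and 9.88 in Schmid and 9.97, 10.34 and 10.38 in wildtype. They were 9.82, 9.88 and 9.47 in Cog, not well above background on any of the 3 arrays, and 10.33, 9.84 and 9.84 in wildtype. Groups overlapped in both comparisons. The log2 fold change in Schmid was -0.31 (95% interval -0.71 to 0.08; FDR-adjusted p = 0.219). In Cog the test did not pass (FDR-adjusted p = 0.401), and no fold change is given because no Cog array was well above background. The other 2 Sox5 probes were not well above background on any array.

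Sox6 came closest to a call in Schmid, with a fold change just above 2 and an adjusted p just above 0.05. Its brightest probe read 11.80, 12.04 and 11.92 in Schmid and 11.78, 10.03 and 10.72 in wildtype. Cog gave 10.52, 11.09 and 10.50 and its wildtype 11.30, 10.94 and 10.66. Every Schmid array was above every wildtype array, by a narrow margin over wildtype replicate 1, while Cog overlapped its wildtype.

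The fold change of Sox6 was 2.12 in Schmid (log2 1.08, 95% interval 0.26 to 1.90; FDR-adjusted p = 0.0569) and -1.20 in Cog (95% interval of the log2 value -1.08 to 0.56; FDR-adjusted p = 0.731). The Schmid and Cog changes differed by 1.34 on the log2 scale (FDR-adjusted p = 0.106), which did not pass. Without wildtype replicate 1 of the Schmid background the log2 fold change was 1.55 (FDR-adjusted p = 0.00284) and Sox6 was called, in Schmid and in the difference from Cog, whereas without wildtype replicate 2 it was 0.675 (FDR-adjusted p = 0.189). Averaged over its 5 probes, the log2 fold change was 0.40 (FDR-adjusted p = 0.0444), under 2-fold. Over all alternatives tried, the adjusted p in Schmid ranged from 0.00284 to 0.189. Of the other 4 Sox6 probes, 2 were not well above background on any array. The dimmest, probe 5, gave 9.58, 9.24 and 9.28 in Schmid, 1 of them well above background, beside 8.92, 8.56 and 8.21 in wildtype, none well above background (FDR-adjusted p = 0.0185). The second brightest probe, well above background on 11 of 12 arrays, had a log2 fold change of 0.10 in Schmid (FDR-adjusted p = 0.826) and -0.56 in Cog (FDR-adjusted p = 0.327).

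**Figure D3:**
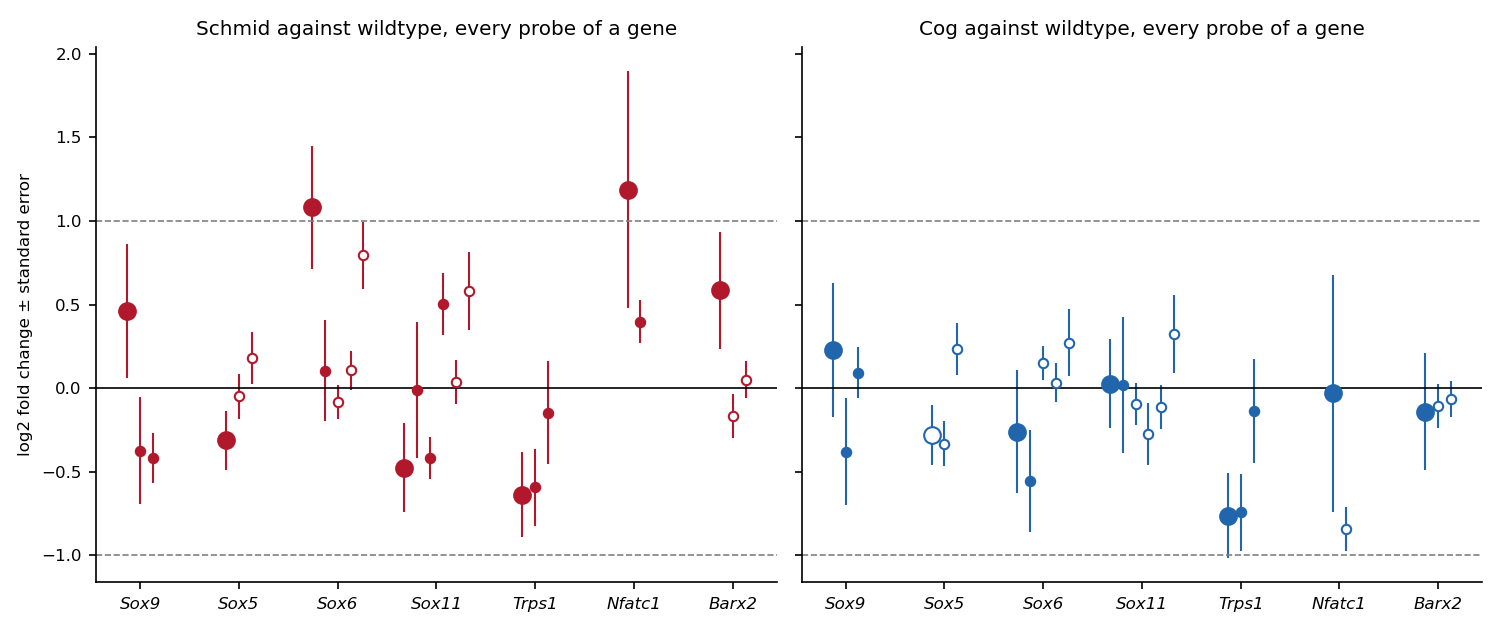
Log2 fold change with its standard error at every probe of the 7 genes with more than 1 probe, ordered within a gene from brightest (large point) to dimmest, in Schmid and Cog against wildtype (n = 3 per group). Open points have a group not well above background on any array, and dashed lines mark 2-fold. The probes of Sox9, Sox5, Sox6, Sox11 and Barx2 spread to both sides of 0 in Schmid, whereas the 3 Trps1 probes lie below 0 in both mutants.

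Of the SoxC genes, Sox4 was lower in Schmid, and Sox11 lay below or above wildtype depending on the probe. Sox4 has a single probe, which read 9.85, 9.92 and 10.06 in Schmid and 10.20, 10.84 and 11.01 in wildtype. It read 10.60, 10.48 and 10.41 in Cog and 10.54, 10.78 and 11.04 in wildtype. All Schmid arrays were below all 9 other arrays, and the Cog arrays overlapped their wildtype. The fold change in Schmid was -1.68 (log2 -0.75, 95% interval -1.19 to -0.30; FDR-adjusted p = 0.0246), under 2-fold, and in Cog -1.23 (log2 -0.29, 95% interval -0.74 to 0.15; FDR-adjusted p = 0.441). The 2 changes differed by -0.45 on the log2 scale (FDR-adjusted p = 0.302). On the arrays scaled to their 75th percentile instead of quantile normalized, Sox4 reached a log2 fold change of -1.02 (FDR-adjusted p = 0.0126) and was called, but there the median of all probes stood at -0.35. Over 25 alternatives its log2 fold change ranged from -1.44 to -0.38, and its FDR-adjusted p was above 0.05 in 6 and at most 0.0887.

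Sox11, the other SoxC gene, gave 9.82, 9.79 and 9.86 in Schmid and 10.24, 10.78 and 9.87 in wildtype at its brightest probe. Every Schmid array was lower, by a narrow margin against wildtype replicate 3, with a fold change of -1.39 (95% interval of the log2 value -1.07 to 0.12; FDR-adjusted p = 0.213). Cog read 9.96, 10.09 and 10.60, with 1 of 3 arrays well above background, and wildtype 10.51, 10.34 and 9.71 (fold change 1.02, FDR-adjusted p = 0.967). At the HMG box probe printed above, values were 9.44, 9.48 and 9.43 in Schmid and 9.66, 10.07 and 9.88 in wildtype, a fold change of -1.34 (FDR-adjusted p = 0.0339). This difference was 0.04 on the log2 scale (FDR-adjusted p = 0.79) once smooth trends over the rows of the array and over probe GC content were removed, and the part of these trends in it was not tested further. Probes 4 and 6 of Sox11 lay higher on every Schmid array than in wildtype, with log2 fold changes of 0.50 (FDR-adjusted p = 0.0743) and 0.58 (FDR-adjusted p = 0.0918), and the latter was well above background on 1 of 12 arrays. Averaged over its 6 probes, the log2 fold change of Sox11 in Schmid was 0.036 (FDR-adjusted p = 0.886).

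Since Sox4 and Sox11 are the pair of related genes that both lay below wildtype in Schmid at the brightest probe, the 250 bases before their starts are printed from RefSeq (GRCm38.p6), at chr13:28953700-28953949 and chr12:27342719-27342968, both on the minus strand and written 5′ to 3′ toward the gene. Capitals mark matches to CCAAT or its reverse complement.
Sox4 upstream: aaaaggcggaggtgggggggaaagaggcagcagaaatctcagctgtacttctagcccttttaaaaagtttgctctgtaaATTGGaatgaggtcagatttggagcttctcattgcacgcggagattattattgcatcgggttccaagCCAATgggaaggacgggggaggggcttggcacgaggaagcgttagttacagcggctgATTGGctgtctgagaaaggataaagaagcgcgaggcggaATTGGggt
Sox11 upstream: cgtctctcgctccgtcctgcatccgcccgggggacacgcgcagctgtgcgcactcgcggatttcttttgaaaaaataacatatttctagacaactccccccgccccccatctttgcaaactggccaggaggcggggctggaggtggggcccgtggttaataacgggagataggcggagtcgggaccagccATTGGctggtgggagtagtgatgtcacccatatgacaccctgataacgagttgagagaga
The motif CCAAT, on either strand, was found 4 times before Sox4 and 1 time before Sox11, and 33.8% of the 32851 promoters of the table hold it. ACAAT, the core that SOX proteins bind, was found before neither gene, and 27.7% of the promoters hold it. It was found before 3 of the 6 starts of Sox6 and also before Sox5, Hdac4 and Shox2. Promoters were available for 6 of the 10 genes. The 2 motifs share the letters CAAT and cannot cover the same bases on 1 strand.

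Trps1, the gene of tricho-rhino-phalangeal syndrome, lay below wildtype in both mutants at its 2 brightest probes without passing the test. The brightest read 15.40, 15.22 and 15.39 in Schmid and 16.29, 15.62 and 16.01 in wildtype. In Cog it read 14.80, 15.24 and 15.75 and in wildtype 16.36, 15.95 and 15.76. All mutant arrays lay below the wildtype arrays of their background. Fold changes were -1.56 in Schmid (95% interval of the log2 value -1.20 to -0.08; FDR-adjusted p = 0.0902) and -1.70 in Cog (-1.33 to -0.20; FDR-adjusted p = 0.117).

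The second Trps1 probe behaved alike. It read 14.46, 14.46 and 14.39 in Schmid and 15.56, 14.69 and 14.84 in wildtype, a fold change of -1.51 (FDR-adjusted p = 0.0836). Its Cog values were 14.97, 14.65 and 14.35 beside 15.63, 15.35 and 15.22 in wildtype, a fold change of -1.68 (FDR-adjusted p = 0.096). Here too no mutant array reached its wildtype arrays. The third probe overlapped in both comparisons, with log2 fold changes of -0.15 in Schmid (FDR-adjusted p = 0.756) and -0.14 in Cog (FDR-adjusted p = 0.838). The brightest probe kept its direction under all 25 alternatives in each mutant and was called in none, with an adjusted p between 0.0458 and 0.207 in Schmid and between 0.0367 and 0.271 in Cog.

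Nfatc1 was the only gene of the 10 with a called difference between the mutants, at its dimmer probe. That probe read 10.26, 10.10 and 10.19 in Schmid, all above its wildtype values of 9.65, 9.73 and 9.98. In Cog it read 9.29, 8.95 and 9.03, all below its wildtype values of 9.93, 10.05 and 9.82. Nfatc1 thus lay above wildtype in Schmid, with a fold change of 1.32 (FDR-adjusted p = 0.0496), and below it in Cog. Over 24 alternatives the Schmid log2 fold change at this probe ranged from 0.088 to 0.751. Its FDR-adjusted p was above 0.05 in 19 of them and at most 0.801. No Cog array was well above background at this probe, so the Cog value is a bound, reached by setting each Cog array at the higher of its own value and its lowest signal well above background. By this bound Nfatc1 was 1.08-fold lower in Cog. Wildtype replicate 1 of the Cog background entered the bound although it was not well above background, so 1.08 is not a strict minimum. Wildtype replicate 2 of the Schmid background was not well above background at this probe either. The FDR-adjusted p of 0.00867 is not of the bound but of the normalized values. Their means were 9.09 in Cog, where no array was well above background, and 9.94 in wildtype. The 2 changes differed by 1.24 on the log2 scale (FDR-adjusted p = 0.00215), in a comparison where 10.3% of all probes were called. The size of this difference takes the Cog readings, which were not well above background, at face value. It fell to 0.82 without background subtraction (FDR-adjusted p = 0.00204) and to 0.85 with 75th percentile scaling (FDR-adjusted p = 0.118), and was called under neither.

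The brighter Nfatc1 probe did not separate the groups. It read 10.72, 11.54 and 11.95 in Schmid, 11.73, 8.53 and 10.39 in wildtype, 10.40, 10.56 and 10.28 in Cog and 11.20, 10.72 and 9.43 in wildtype. Wildtype replicate 2 of the Schmid background was not well above background and stood far below the other 2. The log2 fold change was 1.19 in Schmid (95% interval -0.39 to 2.76; FDR-adjusted p = 0.239) and -0.03 in Cog (95% interval -1.61 to 1.54; FDR-adjusted p = 0.985), and the difference of 1.22 did not pass (FDR-adjusted p = 0.428). Without wildtype replicate 1 of the Schmid background, the Schmid log2 fold change was 1.945 (FDR-adjusted p = 0.0411) and the gene was called, and without the low replicate 2 it was 0.344 (FDR-adjusted p = 0.719). Of the 8 markers of osteoclasts, which depend on NFATc1, none was called in Schmid or Cog. In the difference between the mutants, 1 of these markers was called higher and 1 lower. Their log2 summed level was 14.71 to 15.48 in Schmid, 15.33 to 15.80 in its wildtype, 15.81 to 15.86 in Cog and 14.99 to 16.06 in its wildtype. Atp6v0d2 was not well above background on any of the 12 arrays, and the part of osteoclasts in the Nfatc1 values was not tested.

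**Figure D4:**
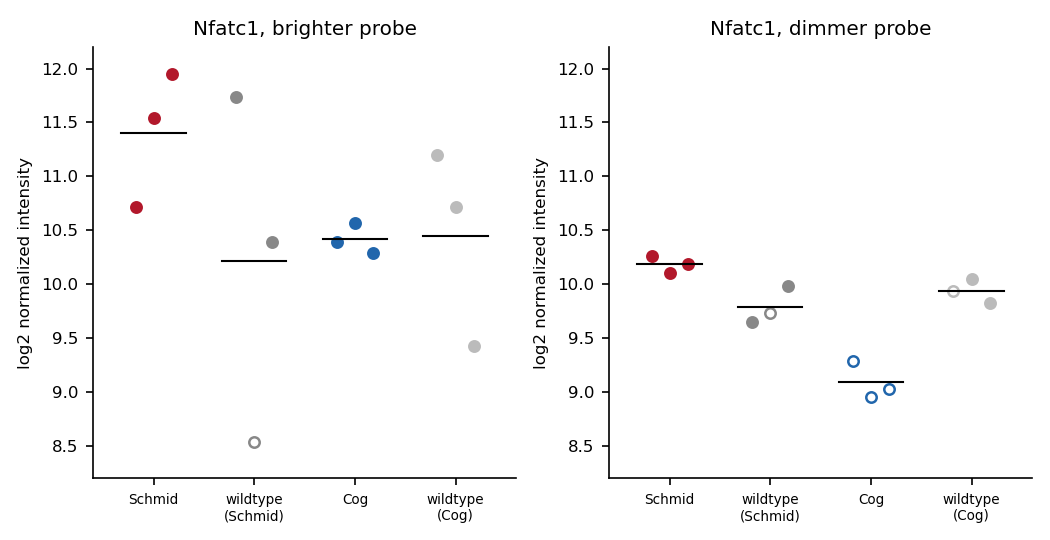
Log2 normalized intensity of the 2 Nfatc1 probes on the 12 arrays, with group means as bars and open points for arrays not well above background. At the dimmer probe the Schmid arrays lie above their wildtype and the Cog arrays below theirs, all 3 unmeasured, whereas at the brighter probe wildtype replicate 1 of the Schmid background reaches the Schmid arrays.

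Hdac4 was near the limit of detection. Its single probe read 9.94, 9.50 and 9.32 in Schmid, with the first 2 arrays well above background, and 8.88, 8.92 and 8.40 in wildtype, with none. It read 9.53, 8.88 and 8.74 in Cog and 7.93, 8.65 and 8.40 in wildtype, again with none. By the same kind of bound, Hdac4 was 1.06-fold higher in Schmid. Schmid replicate 3 entered the bound although it was not well above background, so 1.06 is not a strict minimum. The FDR-adjusted p of 0.0412 is of the normalized values and not of the bound. Their means were 9.59 in Schmid and 8.73 in wildtype, where no array was well above background. All 3 Cog arrays lay above their wildtype too, but neither group was measured, so no fold change is given (FDR-adjusted p = 0.149). Over 24 alternatives the FDR-adjusted p in Schmid ranged from 0.0108 to 0.435 and was above 0.05 in 8.

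Shox2 read between 8.93 and 9.32 on the 12 arrays, not well above background on any. No fold change can be given, and its presence in the hypertrophic zone was not detectable here. Barx2 read 11.33, 12.56 and 12.75 in Schmid, 11.22, 11.98 and 11.68 in wildtype, 11.14, 11.17 and 11.37 in Cog and 10.93, 11.47 and 11.70 in wildtype at its brightest probe. The groups overlapped in both comparisons. Its log2 fold change was 0.59 in Schmid (95% interval -0.20 to 1.37; FDR-adjusted p = 0.243) and -0.14 in Cog (95% interval -0.92 to 0.64; FDR-adjusted p = 0.855). Schmid replicate 1 was lower than the other 2 Schmid arrays, and without it Barx2 was called in Schmid (log2 fold change 1.03, FDR-adjusted p = 0.0307). Without Schmid replicate 3 the value was 0.32 (FDR-adjusted p = 0.573), and averaged over its 3 probes it was 0.16 (FDR-adjusted p = 0.545). The other 2 Barx2 probes were well above background on 2 arrays and on 1 array.

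Some of the genes varied together over the arrays. The closest pair at the brightest probe was Sox6 and Nfatc1 (Pearson r = 0.87, Spearman rho = 0.91 over the 12 arrays of 4 groups). Sox9 went with Nfatc1 (r = 0.70, rho = 0.76) and with Sox6 (r = 0.68, rho = 0.68), and Sox4 ran opposite to Sox6 (r = -0.82, rho = -0.73) and to Sox9 (r = -0.78, rho = -0.78). These are descriptions of 45 pairs that share the same 12 arrays, the group differences and the normalization. Among 12807 probes measured on each of the 12 arrays, the genes most like Sox9 were Hnrpa1 (r = 0.94), Ptma (r = 0.94) and Scd1 (r = 0.94). Those most like Sox6 were Mod1 (r = 0.97), Slc16a1 (r = 0.96) and Sat1 (r = 0.95). For Sox5, well above background on 9 arrays, they were Trp53inp2 (r = 0.89, rho = 0.825), Rag1ap1 (r = 0.88, rho = 0.734) and Tspan17 (r = 0.86, rho = 0.741). These genes were picked as the highest correlations over 12807 probes on 12 arrays, and the correlations were not tested.

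The matrix genes that the SOX trio binds in chondrocytes were tested at their brightest probes. In Schmid 4 of 12 were called lower and none higher, with a median log2 fold change of -0.99, and in Cog none was called, with a median of -0.13. Matn1, a matrilin of proliferating cartilage, had a fold change of -6.11 (FDR-adjusted p = 0.00138). Col9a3 and Col9a2, chains of the collagen that coats type II fibrils, had fold changes of -3.06 (FDR-adjusted p = 0.0082) and -2.25 (FDR-adjusted p = 0.00877), and Col11a2, a chain of their core, -3.01 (FDR-adjusted p = 0.000815). Col2a1, the main target of SOX9, went from 18.70 to 18.33 (log2 fold change -0.37, FDR-adjusted p = 0.0642). The log2 summed level of 7 resting and proliferative chondrocyte markers, which include Matn1, was 16.95 to 17.16 in Schmid and 17.52 to 19.30 in wildtype, with 2 of 7 called lower, and its part in the fall of the matrix genes was not tested.

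Calls were made among the 14 other Sox genes. In Schmid, with quantile normalization, all 14 had a negative log2 fold change, 3 were called lower and none higher. The median was -0.59, beside -0.06 over all probes, and the share of negative signs over all probes was not counted. In Cog 2 were called higher and 1 lower, with a median of 0.05. These signs and medians include Sox2 and Sox30, which were not well above background on any array. They also include Sox3, not well above background on any Schmid or Cog array, and Sox13, not so in Cog or its wildtype. Sox10, known from neural crest and glia, went from 15.01 ± 0.67 in wildtype to 11.83 ± 0.22 in Schmid (SD, n = 3 each), a fold change of -9.11 (FDR-adjusted p = 0.000337), while in Cog it was 15.91 ± 0.25 beside 14.56 ± 0.56 (fold change 2.55, FDR-adjusted p = 0.0565). Sox1, a SoxB1 gene of neural progenitors, had a fold change of -2.92 in Schmid (FDR-adjusted p = 0.000427). Sox21, a SoxB2 repressor, rose in Cog from 11.25 ± 0.83 to 13.28 ± 0.09 (SD, n = 3 each; fold change 4.08, FDR-adjusted p = 0.0412), and Sox15 rose 2.28-fold in Cog (FDR-adjusted p = 0.024).

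Sox7, Sox17 and Sox18 form the SoxF group of endothelial cells. Sox18 was called lower in Schmid (fold change -2.35, FDR-adjusted p = 0.0422), although its arrays overlapped. Sox17 had a fold change of -1.99 there (FDR-adjusted p = 0.00111), just under 2-fold. Sox7 was called lower in Cog from the normalized values (FDR-adjusted p = 0.00916), although no Cog array was well above background. As a bound, which was not itself tested, Sox7 was at least 1.71-fold lower there. Over 25 alternatives its log2 fold change in Cog ranged from -2.75 to -0.018. Its FDR-adjusted p was above 0.05 in 2 of them and at most 0.969. In the other mutant, Sox18 had a fold change of -2.31 in Cog without passing (FDR-adjusted p = 0.106), Sox17 a log2 fold change of 0.23 in Cog (FDR-adjusted p = 0.389) and Sox7 one of -0.11 in Schmid (FDR-adjusted p = 0.753). Of 8 endothelial markers, 5 were called lower in Schmid and 1 in Cog. Their log2 summed level was 13.00 to 13.41 in Schmid and 14.82 to 15.40 in wildtype, and 14.10 to 14.71 in Cog and 15.15 to 15.79 in wildtype. Pecam1 was not well above background on any of the 12 arrays, and the part of endothelial cells in the SoxF values was not tested.

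**Figure D5:**
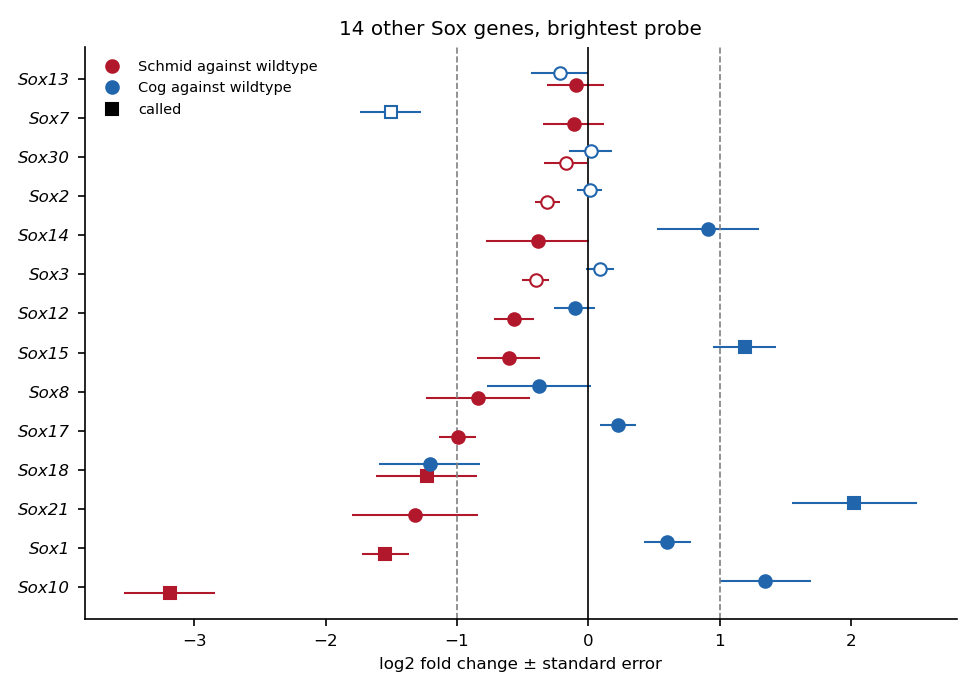
Log2 fold change with its standard error for the 14 other Sox genes at their brightest probe, Schmid in red and Cog in blue, against wildtype (n = 3 per group). Squares were called, open symbols have a group not well above background on any array, and dashed lines mark 2-fold. Sox10 and Sox1 lie at -3.19 and -1.55 in Schmid and on the other side of 0 in Cog.

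Partners of the remaining members were described in the same way. Of 19 other growth plate transcription factors, 1 was called higher and 2 lower in Schmid, with a median of -0.24. None was called in Cog, also with a median of -0.24. Both medians include Barx1, not well above background on any array, and Bapx1, not so on any Schmid or Cog array. In Cog the median also includes Gli1 and Pax9, which were not well above background on any Cog array. Foxa2 and Foxa3, forkhead factors of hypertrophic differentiation, had fold changes of -4.33 (FDR-adjusted p = 0.00069) and -3.87 (FDR-adjusted p = 0.0278) in Schmid, and Msx2, a homeodomain factor of bone-forming cells, 2.08 (FDR-adjusted p = 0.0368). Runx2, the factor that HDAC4 restrains, had a fold change of -1.60 (FDR-adjusted p = 0.0271), under 2-fold.

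Of 8 HDAC and SIK genes, the family of Hdac4 and the kinases that keep class IIa deacetylases in the cytoplasm, 2 were called lower in Schmid and none in Cog (medians -0.19 and -0.10). These medians include Hdac2 and Sik2, which were not well above background on any array. Hdac7a, a class IIa deacetylase like Hdac4, was lower by a fold change of -2.90 (FDR-adjusted p = 0.00687), and Hdac1 had a fold change of -2.12 (FDR-adjusted p = 0.0199). Of 8 NFAT and calcineurin genes, 1 was called higher and 1 lower in Schmid and 1 higher in Cog (medians 0.54 and 0.04). Dscr1, which encodes the calcineurin inhibitor now named Rcan1 and is itself an NFAT target, rose 2.47-fold in Schmid (FDR-adjusted p = 0.0111), Nfatc2 had a fold change of -2.49 there (FDR-adjusted p = 0.00239), and Ppp3r1, the regulatory subunit of calcineurin, rose 5.40-fold in Cog (FDR-adjusted p = 0.0348).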

How the data were processed

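RNA of 12 microdissected hypertrophic zones was amplified in 2 rounds, labelled with Cy3 and hybridised to Agilent arrays, which the authors read with Feature Extraction 9.5.3. The deposited scanner files hold a mean and a background intensity per spot, and the deposited series matrix holds the authors' log2 values, quantile normalized after normexp background correction, used as an alternative. From the intensities, normexp (offset 50) was run in limma 3.58.1 (R 4.3.3), 1639 of 45018 spots were removed as controls, spots marked as outliers were left out, arrays were quantile normalized and spots of a probe averaged. The log2 values matched the deposited ones with r of at least 0.99987. A fit of 4 group means over 12 arrays left 8 residual degrees of freedom and was tested on simulated data. The array number limits the precision. The members and gene lists were chosen with earlier results of these data known. Named genes were all members, up to 4 called genes per list and comparison, and the 3 genes most correlated with Sox9, Sox5 and Sox6. Col2a1, Runx2, Sox10 in Cog and Sox17 fell outside this rule and were chosen after their values were seen. The alternatives covered background correction, scaling, dim probes, slide, position on the array, probe averaging, array weights and single arrays. Authors' comparisons were not used. Each array came from a different mouse.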

Additional observations from a re-analysis of the deposited data

Results flagged for a closer look

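The change differed between Schmid and Cog, by limma's test of the difference itself over all probes, for Nfatc1 at its dimmer probe (log2 difference 1.24, adjusted p = 0.00215), with the Cog arrays not well above background. Among the other Sox genes the log2 difference was -4.54 for Sox10 (adjusted p = 0.000705), -3.35 for Sox21 (adjusted p = 0.00938), -2.15 for Sox1 (adjusted p = 0.00087), -1.80 for Sox15 (adjusted p = 0.00695), -1.22 for Sox17 (adjusted p = 0.00335) and 1.39 for Sox7 (adjusted p = 0.0185), whose Cog arrays were not well above background either. The sizes for Nfatc1 and Sox7 take those readings at face value. For the remaining lists it was -2.19 for Matn1 (adjusted p = 0.0227), -1.93 for Nfatc2 (adjusted p = 0.00307), -1.59 for Foxa2 (adjusted p = 0.0195), -1.34 for Col11a2 (adjusted p = 0.014), 1.36 for Dscr1 (adjusted p = 0.0494) and 1.27 for Hdac3 (adjusted p = 0.0219). A positive difference means a higher Schmid change than Cog change. The Schmid and Cog arrays lay on different slides, so a slide effect in these differences cannot be told apart from genotype. Groups of 3 arrays are too small for a test of single outlying arrays.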

How the results depend on the processing

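At the brightest probe no member was called in Cog or between the wildtype groups under any alternative run. In Schmid, 2 members were called with the Agilent processed signal under either scaling (Sox4 and Hdac4), 2 with normexp and 75th percentile scaling (Sox4 and Sox6), 2 with array weights (Sox6 and Nfatc1), 1 with a trend over rows, or over rows and GC, removed (Hdac4), and 1 with only probes well above background on all 3 arrays of a group, or with slide as a random block (Sox6). By adjusted p alone, 2 passed. The estimated correlation within a slide was -0.12. In the difference between the mutants, 1 member (Sox6) was called with slide as a random block and with array weights. Leaving out single arrays gave 0 to 2 members called in Schmid and 0 to 1 in the difference, with 2 (Sox6 and Nfatc1) and 1 (Sox6) without wildtype replicate 1 of the Schmid background and 1 (Barx2) without Schmid replicate 1. The replicate block called 0 members in each comparison and gave Sox6 a log2 fold change of 1.08 in Schmid (adjusted p = 0.0697). Same-numbered arrays deviated together with correlations of 0.07 to 0.19 in the Schmid background and -0.12 to 0.07 in the Cog background, and the labels give no shared litter or day, so the numbers were not taken as pairs.

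Except for the HMG box probe of Sox11 in Schmid, where the adjusted p was 0.0339, reversed signs concerned fold changes with an adjusted p above 0.05. In Cog, Sox11 went to -0.025 and -0.095 with the processed signal, -0.13 and -0.14 with the trends removed, -0.028 with the slide block, -0.019 over all probes, and -0.21 to 0.19 with single arrays left out. Nfatc1 in Cog went to 0.49 and 0.42 with the processed signal, 0.14 and 0.13 with the trends removed and 0.15 with array weights, and -0.54 to 0.34 with single arrays left out. Over all probes, Sox9 was -0.11 in Schmid and -0.02 in Cog, and Sox11 0.036 in Schmid. The HMG box probe of Sox11 was 0.041 in Schmid with both trends removed. With single arrays left out, Sox9 in Cog ranged from -0.14 to 0.71 and Barx2 in Cog from -0.36 to 0.025. The cause was not tested.

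The median of all probes moved to -0.40 in Schmid and 0.43 in Cog with the processed signal at the 75th percentile and to -0.35 in Schmid with normexp at the 75th percentile. Of the probes called in Schmid, 55.2% were higher, against 42.0% to 42.6% with the processed signal or 75th percentile scaling and 65.7% with both trends removed. Of the list genes, Ppp3r1 lost its call in Cog under 13 of 25 alternatives, Sox21 in Cog under 14, Sox15 in Cog under 7 and Sox7 in Cog under 2. In Schmid the call was lost under 10 for Sox18, 8 for Msx2, 7 for Foxa3, 6 for Col9a2, 4 for Hdac1, 3 for Nfatc2 and 1 each for Hdac7a, Dscr1 and Sox1, whereas Sox10, Matn1, Col11a2, Col9a3 and Foxa2 kept theirs under all 25.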
